A study of Homo sapiens with 3 samples.

Results

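DANCR siRNA1 was compared with a control siRNA in UM-UC-3 cells, an established human bladder cancer line, by the expression array of each condition. The comparison used 2 of the 3 arrays in the series, chosen by the siRNA named in the labels, with 1 array for the control siRNA and 1 for DANCR siRNA1. Both groups were UM-UC-3 cells given 75 nM siRNA with Lipofectamine RNAiMAX for 48 h, and they differed by label only in the siRNA. The remaining array carried a second siRNA against the same RNA, DANCR siRNA2, at the same dose and time. It is printed beside the first only as a value, because both ratios share the control array. The study asked which genes respond to loss of DANCR. The model is 1 cell line, the labels name 1 sample per siRNA, and nothing in them says how many culture dishes a sample holds. With 1 array a side there is no replicate check, so every difference given here is a size on these arrays, with no test and no error, and the number of arrays limits the precision.

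DANCR is a spliced long noncoding RNA that also hosts a small nucleolar RNA, and it has been described as raised in many carcinomas. An siRNA is a short RNA duplex of which a strand is loaded into an Argonaute protein and guides the cutting of a matching transcript. The same guide strand can also lower transcripts that pair only with its seed, the bases near its 5′ end, as a microRNA does. Cells answer amino acid shortage, misfolded protein in the endoplasmic reticulum (ER) and double-stranded RNA through kinases that phosphorylate the translation factor eIF2α. That raises translation of the transcription factor ATF4, whose targets include DDIT3 and genes for amino acid uptake and synthesis. This is known as the integrated stress response.

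The siRNA sequences are shown because they are all that separates the groups by label. Bases 2 to 8, counted from the 5′ end, are in capitals, and these are the seed when a strand is the guide. The labels do not say which strand was loaded, so the complement of the DANCR siRNA1 bases, without the overhang, is given too. The microRNAs come from the RefSeq table of mature sequences, with their own bases 2 to 7 in capitals, which each of them shares with that complement.
Control siRNA as labelled: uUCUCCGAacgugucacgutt
DANCR siRNA1 as labelled: gCGUACUAacuuguagcaatt
DANCR siRNA1, complement: uUGCUACAaguuaguacgc
hsa-miR-221-3p: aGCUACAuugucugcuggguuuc
hsa-miR-222-3p: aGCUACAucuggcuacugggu
hsa-miR-187-5p: gGCUACAacacaggacccgggc

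None of the 2545 mature microRNAs in the table held the same bases 2 to 8 as the labelled strand or the complement of either siRNA (0 in each case). Bases 3 to 8 of the DANCR siRNA1 complement (GCUACA) were bases 2 to 7 of 3 microRNAs, the ones printed above, which is a shift by a single base. In hsa-miR-187-5p the base after the capitals matches the complement too. A search of transcripts for seed matches was not made here, because no transcript sequences were used. The labels gave target position 390 for DANCR siRNA1 under a tag that refers to the WDR5 coding sequence. WDR5 is a chromatin adaptor. This gene had an intensity of 137 in the control and 138 with siRNA1, a log2 ratio of 0.01, and its other probe set stood at 111 and 129.

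DANCR was the first gene examined, as the check of the labels. Its single probe set stood at an intensity of 671 with the control siRNA and 116 with DANCR siRNA1, which is 17.3% of the control or 5.77-fold lower. The array of DANCR siRNA2 stood at 126. Both arrays given an siRNA against DANCR were low and the control was high. The knockdown value in the labels, 0.1734 of the control, equals this array ratio to the digits given, so it adds no separate measurement. In bulk RNA, fewer cells with a transcript and less of it per cell cannot be told apart.

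The genes that mark this comparison lay on both sides. IL11, a cytokine of the interleukin 6 family, had an intensity of 102 in the control and 10.2 with siRNA1. The second value was under the floor of 10.5, the median of all values in the table, to which lower intensities were raised. IL11 was therefore at least 9.64-fold lower, and siRNA2 gave 26.2. Its dimmer probe set differed much less, at 42.2 and 30.5, a log2 ratio of -0.47. PLAU, the urokinase that turns plasminogen into plasmin, was at 3052 (control), 538 (siRNA1) and 1457 (siRNA2). That is 5.67-fold lower with siRNA1, and the second PLAU probe set, at 321 and 48.9, was 6.58-fold lower. For PLAU both probe sets therefore gave a difference of like size.

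AXL, a receptor tyrosine kinase that binds GAS6, was at 1289.7 (control), 224 (siRNA1) and 934 (siRNA2), which is 5.76-fold lower with siRNA1. Its dimmer probe set stood at 43.9 and 25.9, 1.70-fold lower, so it shared the direction but not the size. DDIT3, the stress transcription factor also called CHOP, was at 47.6 (control), 182 (siRNA1) and 89.5 (siRNA2), 3.84-fold higher with siRNA1 on its only probe set. DANCR, IL11, PLAU and AXL were low with siRNA1 and DDIT3 was high. The DANCR siRNA2 array lay between the control and siRNA1 for PLAU, AXL, IL11 and DDIT3, and close to siRNA1 for DANCR. The study chose IL11 and PLAU on these samples, so their direction is not independent evidence.

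**Figure D1:**
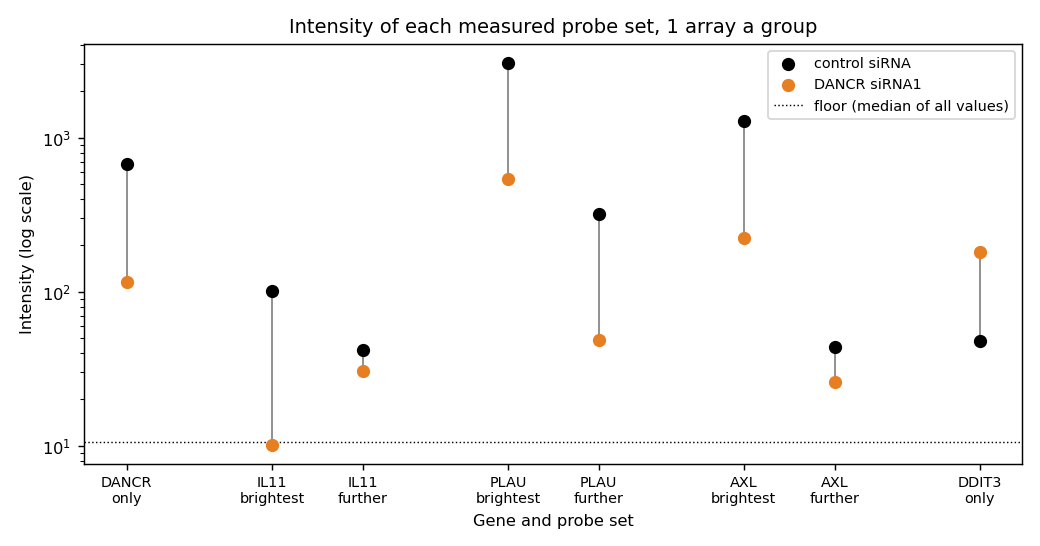
Intensity (log scale) of every measured probe set of DANCR, IL11, PLAU, AXL and DDIT3 on the control (black) and DANCR siRNA1 (orange) arrays, 1 array a point and no error bar, with the floor of 10.5 as a dotted line. DANCR is at 671 and 116, both PLAU probe sets are low with siRNA1, the further IL11 and AXL probe sets differ less than the brightest, and DDIT3 alone is higher with siRNA1.

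Across the transcriptome the arrays were close. Of 19775 genes with a probe set of their own, 12372 were measured, meaning that the control or the siRNA1 array lay above the floor. Of these, 5257 had a log2 ratio above 0, 4908 below 0 and 2207 (17.8%) exactly 0, with a median of 0. The 5th and 95th percentiles were -0.65 and 0.70, and the 1st and 99th were -1.20 and 1.17. At least 2-fold higher with siRNA1 were 232 genes (1.88%) and at least 2-fold lower were 218 (1.76%), or 3.64% either way. These shares are the background for every list below. Past 4-fold, 4 genes were higher and 12 lower. In 11 of the higher genes the control lay at the floor and in 12 of the lower genes siRNA1 did, so their folds are lower bounds.

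Calls were spread over the range of brightness. In the dimmest quintile of genes (mean intensities 8.24 to 20.4) 13 were 2-fold higher and 14 lower, and 40.4% of ratios were exactly 0. In the middle quintile (47.8 to 108) there were 71 and 76, with an SD of the log2 ratios over genes of 0.51. In the brightest quintile (266 to 9679) there were 36 and 37, with an SD of 0.39. The 3′/5′ intensity ratio, a measure of RNA quality, was 11.9 and 11.8 for ACTB and 1.25 and 1.29 for GAPDH. The arrays were thus alike, but the ACTB ratio was high on both, and likeness does not show that the RNA was intact. The mean intensity of the arrays was 95.3 and 96.3, with the normalisation not given.

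**Figure D2:**
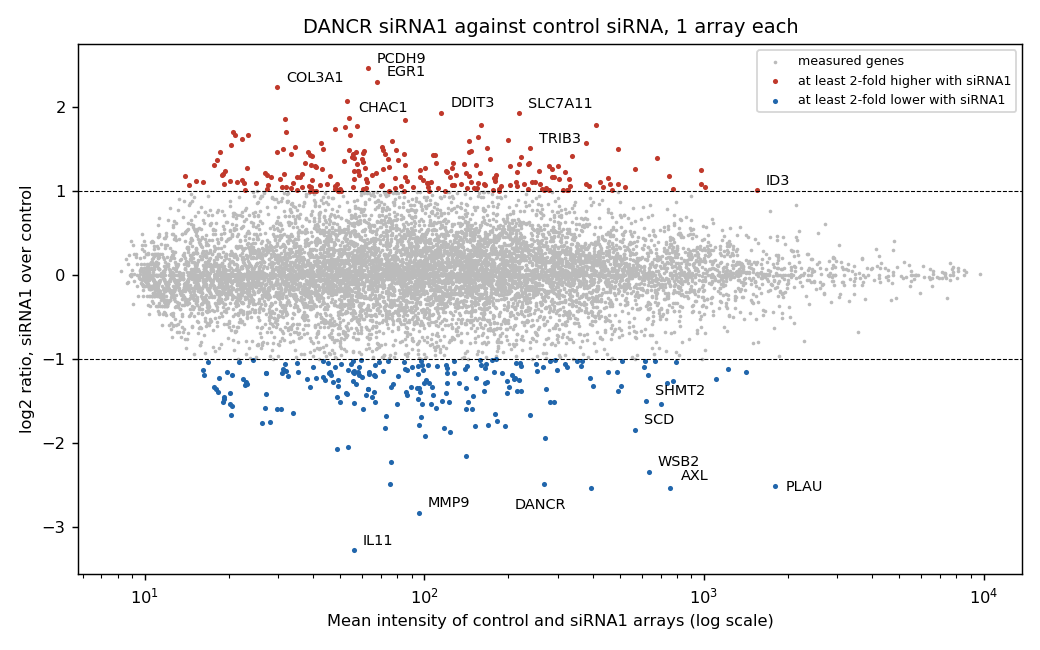
Log2 ratio of DANCR siRNA1 over control (vertical) against the mean intensity of both arrays (horizontal, log scale) for 12372 measured genes, 1 point a gene, with dashed lines at 2-fold and some named genes labelled. Most genes lie near 0 at every brightness, with 232 above the upper line and 218 below the lower one.

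Where a gene had a further measured probe set, it served as a check within the same arrays, though not as a replicate. Such a probe set existed for 5958 genes, and over them the brightest and next brightest ratios differed by a median of 0.17 (log2). Of the 232 higher genes, 138 had one, and in 115 (83.3%) it pointed the same way, in 8 the other way and in 15 it was 0. It was itself 2-fold higher in 39 (28.3%), against 1.75% of all genes with a further probe set. Of the 218 lower genes, 116 had one, with 95 (81.9%) in the same direction, 9 opposite and 12 at 0, and 38 (32.8%) 2-fold lower against 1.24%. A further 94 higher and 102 lower genes had no such check.

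**Figure D3:**
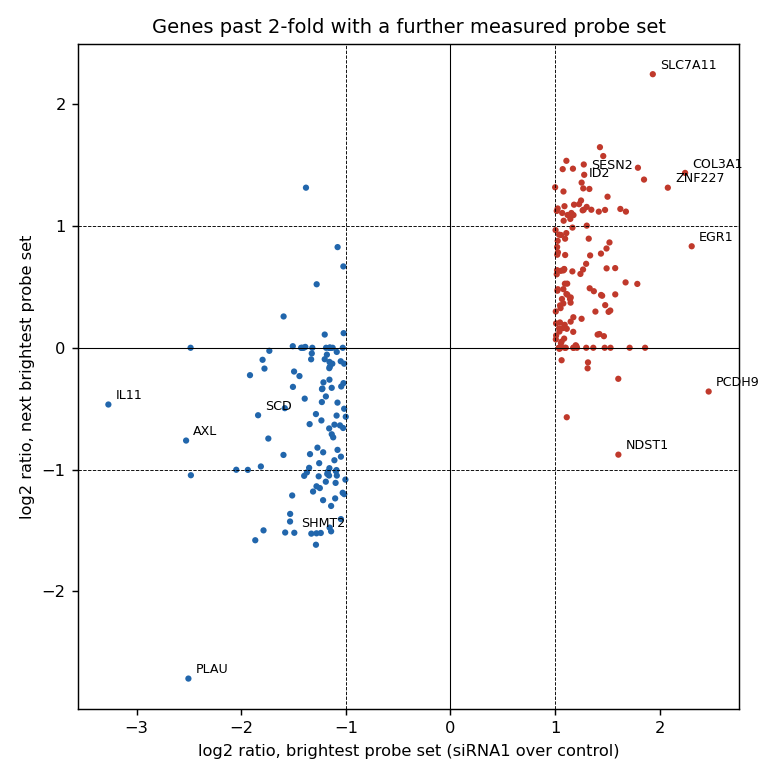
Log2 ratio (DANCR siRNA1 over control) of each called gene's brightest probe set (horizontal) against that of its next brightest measured probe set (vertical), 138 genes higher and 116 lower, with lines at 0 and at 2-fold. The next probe set shares the direction in 115 and 95 genes and is past 2-fold in 39 and 38.

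In a few genes every probe set agreed past 2-fold. There were 21 such genes higher and 25 lower, and they are named here after their values were seen only where 3 or more probe sets did so. CREBRF, a regulator of the unfolded protein response that restrains CREB3, stood at 32.2 in the control and 88.7 with siRNA1 (34.5 with siRNA2) on the brightest of its 4 probe sets, which gave log2 ratios from 1.18 to 1.70. BICD2, a dynein cargo adaptor, stood at 107 and 224 (216 with siRNA2), with 3 probe sets from 1.07 to 1.47. Lower on 3 probe sets each were SHMT2, the mitochondrial serine hydroxymethyltransferase, FLII, an actin-remodelling protein, and TMEM64, a membrane protein. SHMT2 stood at 915 and 325 (789 with siRNA2), with ratios from -1.49 to -1.59. FLII stood at 234 and 96.1 (264 with siRNA2) and TMEM64 at 286 and 138 (449 with siRNA2). In CREBRF, SHMT2, FLII and TMEM64 the siRNA2 array was nearer to the control than to siRNA1, or on the far side of it.

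Among the 12 genes with the lowest ratios that had both arrays above the floor, and so without IL11, and whose next probe set was also below 0, AXL and PLAU came first. FRMD4A, a scaffold of epithelial polarity, was at 453 in the control and 81.2 with siRNA1, 5.58-fold lower, with -1.05 on the next probe set. OBSL1, a cytoskeletal adaptor, was at 86.2 and 20.9, 4.13-fold lower. TMCC3, an ER membrane protein, was at 428 and 112, 3.83-fold lower. PKIA, an inhibitor of protein kinase A, was at 194 and 53.3, 3.64-fold lower, and its next probe set gave -1.58. CHST11, which sulphates chondroitin chains, was at 262 and 75.8, 3.45-fold lower, with -1.50 on the next probe set. The others were VEPH1, 183 and 52.2 (3.51-fold), and LLGL1, a polarity protein, 235 and 67.7 (3.47-fold) but -0.10 on its next probe set. FASN, SCD and VARS1 complete the 12 and are described with their pathways, the first pair under fatty acid synthesis.

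The lower genes with no second probe set to check them were led by MMP9, a gelatinase that cleaves basement membrane collagen. MMP9 was at 167 (control), 23.6 (siRNA1) and 34.8 (siRNA2), 7.08-fold lower with siRNA1. WSB2, a substrate receptor of a ubiquitin ligase, was at 1061 and 210, 5.05-fold lower. GCH1, which starts tetrahydrobiopterin synthesis, was at 125 and 26.8, 4.68-fold lower. CLGN, an ER chaperone, was at 230 and 51.9 (4.43-fold) and EVI2A, a membrane protein, at 78.5 and 18.8 (4.18-fold). MMP9 was low on both DANCR siRNA arrays. With siRNA1 at the floor, APOLD1 was at least 3.17-fold lower, the endothelial receptor TIE1 at least 2.94-fold, the potassium channel KCNC1 at least 2.89-fold and SPOCD1 at least 2.84-fold.

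Among genes with both arrays above the floor and a supporting probe set, the largest ratios were those of a transcription factor, zinc finger genes and the cystine transporter. EGR1, an immediate early transcription factor, was at 22.8 (control), 113 (siRNA1) and 66.0 (siRNA2), 4.95-fold higher with siRNA1. Its next probe set, with the control under the floor at 6.22, gave at least 0.83 (log2). ZNF227 was at 20.3 and 85.5, 4.22-fold higher, with 1.31 on the next. ZNF765 was at 37.2 and 134, 3.61-fold higher, with 1.38. SLC7A11, which imports cystine in exchange for glutamate, was at 90.5 (control), 346 (siRNA1) and 66.5 (siRNA2), 3.82-fold higher with siRNA1, and its next probe set gave 2.25. For SLC7A11 only the siRNA1 array was high. ERLIN2, which directs ER proteins to degradation, was at 71.2 and 247 (3.46-fold, next probe set 1.48). MESD, a chaperone of LDL receptor family proteins, was at 186 and 640 (3.45-fold, next 0.52). MKNK2, a kinase of the translation factor eIF4E, was at 190 and 567 (2.98-fold, next 0.44), and PRR14L at 86.3 and 248 (2.87-fold, next 0.86). The remaining 4 of the 12 were dim: SAMSN1 at 11.1 and 35.5, ZNF518A at 10.9 and 33.5, DIP2C at 21.5 and 64.1, and IFT27, an intraflagellar transport protein, at 17.8 and 51.2.

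Higher genes with 1 measured probe set included DDIT3 and CHAC1, which degrades glutathione, both on the stress lists. DNAAF4, an assembly factor of ciliary dynein, was at 25.9 and 88.9, 3.44-fold higher. PRMT6, an arginine methyltransferase of histones, was at 23.6 and 80.5, 3.42-fold higher. The long noncoding RNA LINC01234 was at 22.02 and 73.5, 3.34-fold higher, and LIAT1 at 15.0 and 49.1, 3.27-fold higher. With the control array at the floor, COL3A1, a fibrillar collagen chain, was at 49.9 with siRNA1, at least 4.74-fold higher, and its next probe set gave 1.44. TRMT10A, a tRNA methyltransferase, was at least 3.20-fold higher with 1.12 on the next probe set. ID4, which sequesters helix-loop-helix factors, was at least 3.28-fold higher but 0.00 on its next probe set. TMEM144 was higher by 2.93-fold or more and ZNF585B by 2.77-fold or more.

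A few large ratios were opposed, or not shared, by the next probe set of the same gene. PCDH9, a protocadherin, had a log2 ratio of 2.47 on its brightest probe set and -0.36 on the next. NDST1, which sulphates heparan, had 1.61 and -0.88, and CCDC85B 1.61 and -0.25. SURF1, an assembly factor of cytochrome oxidase, had -1.59 and 0.26, while TMEM132A had -1.51 and 0.01 and the desaturase SCD5 -1.39 and 0.01. In TMEM132A and SCD5 the next probe set was nearly equal on both arrays, at 28.2 and 28.4 and at 13.5 and 13.6. In SURF1 it was close to the floor, at 12.4 and 14.9. For SURF1 and SCD5 the next probe set lay too near the floor to check the fall of the brightest one. For TMEM132A the next probe set stood clear of the floor and did not share the fall. The median over the TMEM132A probe sets was -0.26. For PCDH9, NDST1 and CCDC85B the arrays give no single direction.

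The 6 lists of stress response genes held 87 measured genes. They were chosen with earlier results of these data known, and DDIT3 is also a marker of the comparison. Their shares therefore describe these members and are not independent evidence. Of these, 12 were 2-fold higher (13.8%, against a background of 1.88%) and 3 were 2-fold lower (3.45%, against 1.76%), and 57 lay above 0 and 23 below. Their median log2 ratio was 0.27, against 0 over all genes, and with siRNA2 it was 0.18, with 1 gene 2-fold higher and 2 lower, where 2.13% of all genes were higher and 1.22% lower. Of the 12 higher genes, 7 had a further probe set. It pointed the same way in 7 of them and was past 2-fold in 3. Over the 47 list members with a further probe set, it lay above 0 in 27 and below in 17, with a median of 0.10.

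The stress transcription factors, 10 measured, had a median of 0.42, with 8 above 0 and DDIT3 the only member past 2-fold. Of the 6 members with a further probe set, it lay below 0 in 3 and above 0 in 2, with a median of -0.13, so the further probe sets did not share the direction of the list. ATF4, the central factor, was at 1146 in the control and 1381 with siRNA1, a log2 ratio of 0.27. XBP1, spliced by the ER sensor IRE1, was at 37.2 and 68.4 (0.88), but its next probe set gave -0.38. ATF3 was equal on both arrays at 19.2 on its brightest probe set, while its next stood at 13.4 and 26.0 (0.96). The feedback and death regulators, 16 measured, had a median of 0.33 with 3 higher and 0 lower. CHAC1 was at 23.1 (control), 84.8 (siRNA1) and 27.2 (siRNA2), 3.67-fold higher with siRNA1. TRIB3, a pseudokinase that binds ATF4 and DDIT3, was at 124, 352 and 144 in the same order, with a log2 ratio of 1.51. Its next probe set was dim, at 9.20 and 12.9, with the control under the floor, so its 0.30 is a lower bound. SESN2, an mTORC1 inhibitor that senses leucine, was at 35.8, 86.9 and 60.3, with 1.28 and a next probe set at 1.42. In CHAC1 and TRIB3 the siRNA2 array lay beside the control. PPP1R15A, which reverses eIF2α phosphorylation, was at 43.3 and 45.8 (0.08), so the list was not uniform.

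The enzymes of serine, asparagine and one-carbon synthesis, 13 measured, had a median of 0.44, with 3 higher, 1 lower and 10 above 0. ASNS, asparagine synthetase, was at 173 (control), 352 (siRNA1) and 197 (siRNA2), a log2 ratio of 1.02. PSAT1, the transaminase of serine synthesis, was at 656, 1362 and 943, with 1.05 and 0.63 on the next probe set. CBS, which makes cystathionine, was at 17.4, 39.2 and 34.5, with 1.17 and 1.47. The first and last steps of serine synthesis fell short of 2-fold, PHGDH at 0.87 and PSPH at 0.73. SHMT2, the next enzyme after serine in mitochondria, was 2-fold lower, as given above. MTHFD2, also mitochondrial, was at 1001 and 1485 (0.57), so enzymes of 1 pathway stood on both sides.

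Of the amino acid transporters, 13 measured with a median of 0.11, only SLC7A11 was 2-fold higher and 0 were lower. Its partner chain SLC3A2 was at 81.5 and 141 (0.79). The cytosolic aminoacyl-tRNA synthetases, 17 measured, had a median of 0.44, with 2 higher, 1 lower and 11 above 0. AARS1 was at 121 (control), 322 (siRNA1) and 215 (siRNA2), with a log2 ratio of 1.41. SARS1 was at 296, 629 and 437, with 1.09, but 0.08 on its next probe set. VARS1, for valine, was at 148, 43.1 and 181, 3.43-fold lower with siRNA1, with -0.17 on its next. The median of this list depended on the probe sets used: it was 0.24 by the median over each gene's probe sets and 0.07 without probe sets of the _s_at and _x_at kind, which can match more than 1 transcript.

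The ER chaperones and degradation factors, 18 measured, did not share a direction: the median was 0.00, with 8 above 0 and 8 below, 2 higher and 1 lower. HERPUD1, an ER-associated degradation factor, was at 257 (control), 727 (siRNA1) and 349 (siRNA2), with a log2 ratio of 1.502. ERO1A, which oxidises protein disulphide isomerase, was at 205, 454 and 360, with 1.15 and 0.37 on the next probe set. HYOU1, a large ER chaperone, was at 310, 120 and 408, with -1.37. HSPA5, the main ER chaperone, was at 865 and 1209 (0.48), but its next probe set gave -0.47. The 14 measured glutathione and thioredoxin genes had 0 past 2-fold in either direction and a median of 0.09.

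**Figure D4:**
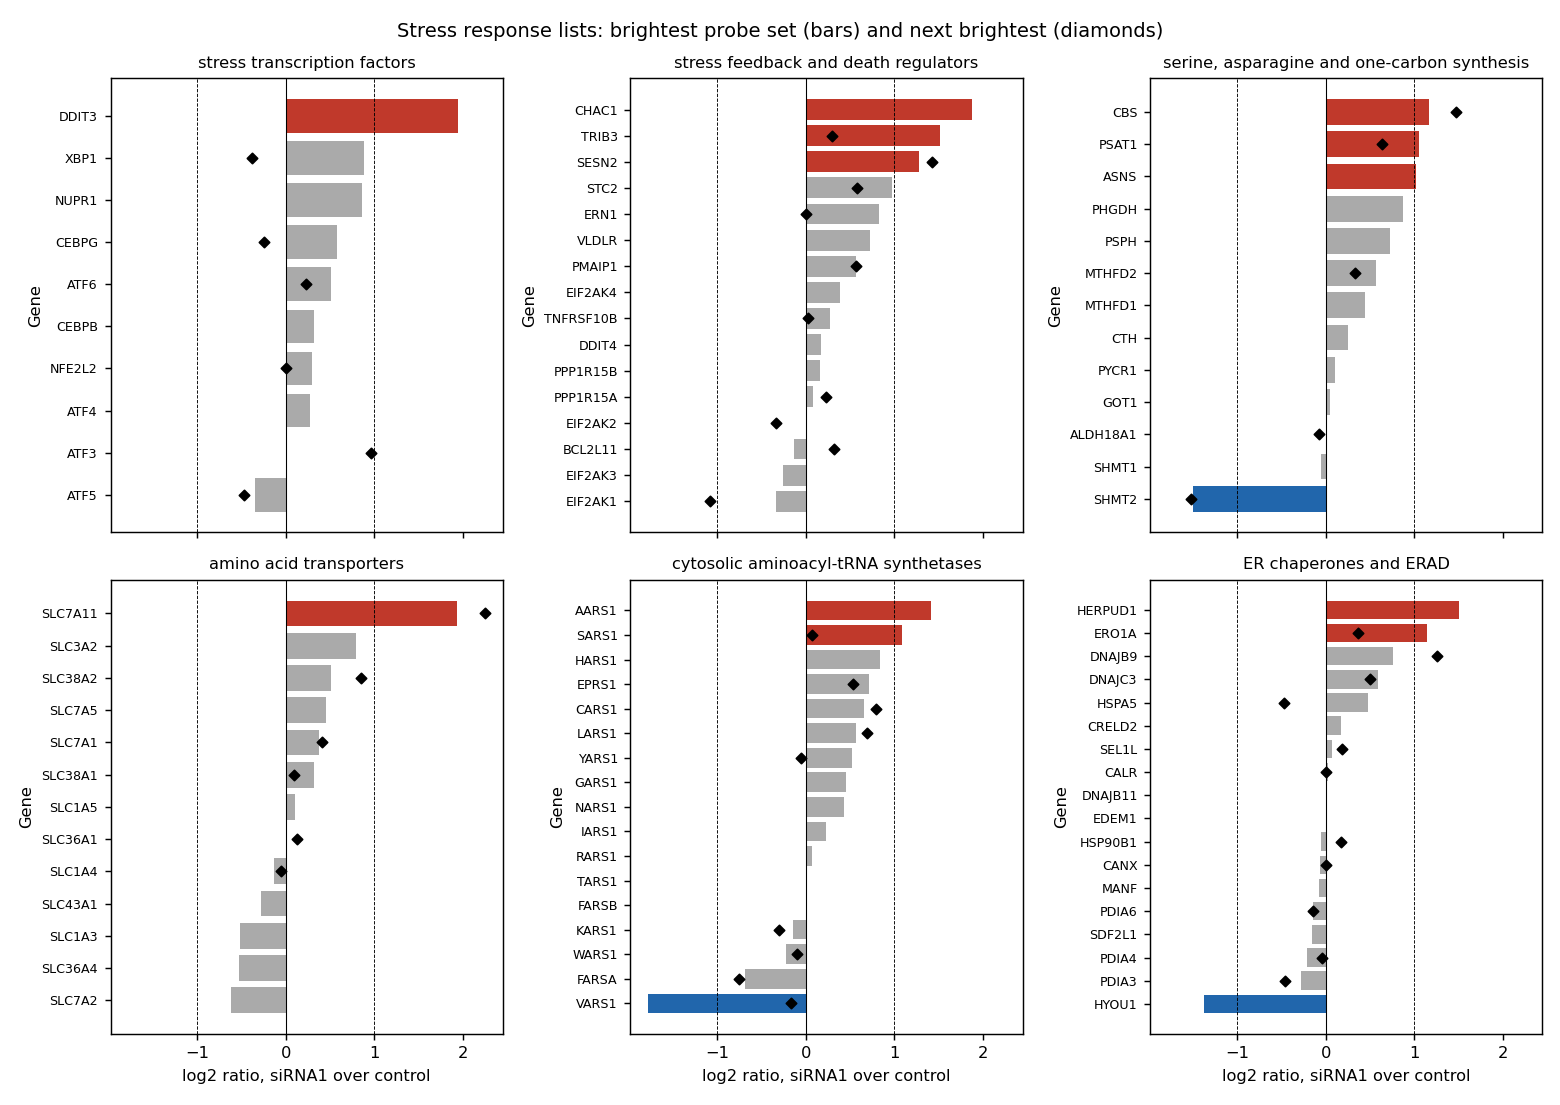
Log2 ratio of DANCR siRNA1 over control for each measured gene of the 6 stress response lists, 1 panel a list, with the brightest probe set as a bar (red or blue past 2-fold), the next brightest as a diamond and dashed lines at 2-fold. There are 12 red bars, led by DDIT3, SLC7A11 and CHAC1, and 3 blue ones, VARS1, SHMT2 and HYOU1.

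ATF4 and C/EBP family partners bind a composite element of the form TGATGNAA. It was searched on both strands of RefSeq promoters (GRCh38.p14), each from 250 bases before to 50 after the start of a gene. The motif was present in 3.62% of 35116 promoters and in 2.82% of the 10005 measured genes with a promoter. It was in 25.3% of the 75 measured stress list genes with one, and in 4 of their 11 members that were 2-fold higher. In all called genes it was in 5.05% of 198 higher and 4.76% of 168 lower ones. The 4 promoters with the motif are printed with 40 bases on either side, 5′ to 3′ on the strand of the gene and with the motif in capitals. In CHAC1, AARS1 and HERPUD1 it lies on the opposite strand, so the capitals show its complement.
CHAC1, chr15:40953222-40953309, plus strand: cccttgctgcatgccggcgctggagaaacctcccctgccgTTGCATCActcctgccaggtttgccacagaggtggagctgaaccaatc
ASNS, chr7:97872429-97872516, minus strand: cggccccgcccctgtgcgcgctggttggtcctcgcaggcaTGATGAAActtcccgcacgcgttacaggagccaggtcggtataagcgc
AARS1, chr16:70289646-70289733, minus strand: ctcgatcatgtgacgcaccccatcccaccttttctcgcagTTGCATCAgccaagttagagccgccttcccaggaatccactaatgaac
HERPUD1, chr16:56931926-56932013, plus strand: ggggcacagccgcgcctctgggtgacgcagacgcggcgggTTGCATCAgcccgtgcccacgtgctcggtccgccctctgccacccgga

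A match describes these letters only, and for the other 7 of the 11 the absence of a match says only that the letters are not in this window. The stress lists were made in part of known ATF4 targets, so their share of the motif reflects that choice and not these arrays. Neither this motif nor the one searched next contains the other.

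The NF-kappaB targets and chemokines stood on the other side. NF-kappaB is a transcription factor that induces chemokines and its own inhibitors. Of 16 measured members, 15 lay below 0, 0 above and 1 at 0, with a median log2 ratio of -0.58, and 4 were 2-fold lower (25%, against a background of 1.76%). With siRNA2 the median was -0.33. This list too was chosen with earlier results of these data known, so its share is not independent evidence. Only 5 members had a further probe set, which lay below 0 in 3 and above 0 in 0, with a median of -0.02. CCL2, a monocyte chemokine, was at 321 (control), 124 (siRNA1) and 247 (siRNA2), with -1.38. NFKBIA, the inhibitor IκBα, was at 723, 290 and 455, with -1.32, while its next probe set was dim, at 16.9 on both arrays (0.00). CXCL3, a neutrophil chemokine, was at 62.0, 26.2 and 20.6, with -1.24. NFKBIE, a further inhibitor, was at 42.9, 20.6 and 30.3, with -1.06. CXCL1 (-0.97), LIF (-0.93), CXCL8 (-0.73) and CXCL2 (-0.54) were lower by less than 2-fold. IL1B was equal on both arrays at 13.5, and SOD2 was at 142 and 127 (-0.16). The control array was above the siRNA1 array in 15 of 16 genes, and siRNA2 lay between them or beside siRNA1 in the chemokines CCL2, CXCL1, CXCL2 and CXCL8.

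The NF-kappaB element GGAATTTCC, searched on both strands, was in 0.461% of all promoters, 0.580% of those of measured genes and 66.7% of the 12 list members with a promoter in the table. These were CXCL1, CXCL2, CXCL3, CXCL8, NFKBIA, NFKBIZ, NFKB1 and ICAM1, 8 in all. The list was made of NF-kappaB targets, so this share reflects its making and not these arrays. Of the 8, only CXCL3 and NFKBIA were 2-fold lower, and NFKBIZ (-0.21), ICAM1 (-0.18) and NFKB1 (-0.06) differed little. In all called genes it was in 2.38% of the lower and 1.01% of the higher. The promoters of the pair that were 2-fold lower are printed, with the element in capitals. In NFKBIA the element lies on the opposite strand, so the printed strand shows its complement, GGAAATTCC.
CXCL3, chr4:74038719-74038807, minus strand: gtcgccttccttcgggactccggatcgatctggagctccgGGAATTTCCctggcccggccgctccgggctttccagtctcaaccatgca
NFKBIA, chr14:35404782-35404870, minus strand: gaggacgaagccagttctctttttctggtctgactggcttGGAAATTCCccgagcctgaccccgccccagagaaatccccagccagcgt

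In the IL-6 family, 12 measured genes had a median of -0.08, with IL11 the only one past 2-fold (1 lower, 0 higher). STAT3, which the shared receptor chain activates, was at 159 (control), 94.5 (siRNA1) and 259 (siRNA2), with -0.75 and -0.74 on its next probe set. SOCS3, its feedback inhibitor, was at 33.5 and 18.8 (-0.83), but -0.02 on its next probe set. The mean of the list, in which IL11 is at its bound, was -0.44.

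Proteases of plasminogen activation and the matrix, 11 measured, had a median of -0.42, with 2 lower, 0 higher and 8 below 0. The 2 were MMP9 and PLAU, as given above. PLAUR, the urokinase receptor, was at 377 (control), 212 (siRNA1) and 240 (siRNA2), with -0.83 and -0.88 on its next probe set. Both the protease and its receptor were thus lower on this array. Among integrins and laminins, which join cells to the basement membrane, 4 of 15 measured were 2-fold lower (26.7%, against a background of 1.76%). Of the 15, 0 were 2-fold higher and 10 lay below 0, with a median of -0.16. LAMA5, a laminin chain, was at 82.9 and 28.9 (-1.52). ITGA3, an integrin chain that binds laminin, was at 69.2 and 29.2 (-1.25). ITGA2, a collagen-binding chain, was at 166 and 74.4 (-1.16), but -0.26 on its next probe set. LAMB3, a laminin chain of epithelia, was at 65.3 and 30.8 (-1.08). With siRNA2, LAMA5 stood at 42.9, ITGA3 at 60.4, ITGA2 at 90.5 and LAMB3 at 29.2, so of these only LAMB3 was 2-fold lower there. Mesenchymal and adhesion genes, 14 measured, had a median of -0.04, with COL3A1 the only one past 2-fold. VIM, vimentin, was at 5322 and 4412 (-0.27).

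Receptor tyrosine kinases, 21 measured, had 3 members lower and 2 higher, with a median of -0.02. EGFR was at 147 (control), 60.5 (siRNA1) and 121 (siRNA2), with -1.28 and -1.52 on the next probe set. KIT was at least 2.73-fold lower, from 28.7 to the floor. ROR1, a Wnt5a receptor, was at 37.3, 105 and 90.5, with 1.49 and 0.82. DDR2, a collagen receptor, was at 34.3, 81.5 and 68.2, with 1.25 and 1.21. AXL and EGFR were thus lower and DDR2 and ROR1 higher, with no shared direction. Targets of YAP and TEAD, the transcription factors under Hippo control, had 14 of 18 measured below 0, 2 above and 2 past 2-fold lower, AXL and ASAP1, with a median of -0.31. With siRNA2 the median was 0.05. ASAP1, an Arf GTPase activator, was at 1554, 658 and 1140, with -1.24 and -1.52 on the next probe set. PTPN14, a phosphatase that restrains YAP, was at 715 and 428 (-0.74), while the classical targets CCN1 and CCN2 had -0.48 and -0.26.

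Immediate early genes, 16 measured, were split, with 3 higher and 3 lower and a median of -0.06, against a mean of 0.11. Besides EGR1, KLF4 was at 94.7 (control), 248 (siRNA1) and 235 (siRNA2) (1.39, next probe set 0.30). JUND was at 87.6, 218 and 209 (1.31). Lower were FOSL2, 191 and 88.5 (-1.11), IER3, 429 and 206 (-1.06), and FOSL1, 376 and 186 (-1.02). The next FOSL2 probe set gave -0.63, and the median over the 5 measured probe sets of that gene was -0.18. EGR1, KLF4 and JUND were high on both DANCR siRNA arrays. FOSL1 and FOSL2 were low on siRNA1 alone, with 362 and 255 on siRNA2. ERK feedback genes, 15 measured, had a median of -0.19. DUSP5, a nuclear ERK phosphatase, was the only member past 2-fold on the probe set that stood for its gene, at 225 and 108 (-1.06). PHLDA1 was at 664 and 580 (-0.19), but its next probe set stood at 1034 and 258 (-2.01). Of the 9 members with a further probe set, it lay below 0 in 5 and above 0 in 1.

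The TGF-beta and BMP pathway, 24 measured, had 3 higher, 2 lower and a median of 0.00. The 3 higher ones were ID2, ID3 and ID4, of a gene family induced by BMP receptors through SMAD proteins, while ID1 was at 867 and 1074 (0.31). ID2 was at 579 (control), 1380.1 (siRNA1) and 1345 (siRNA2), with 1.25 and 1.36 on its next probe set. ID3 was at 1025, 2071 and 2037 (1.01). ID4, at the floor in the control and at 0.00 on its next probe set, is given above. SMAD3, the TGF-beta transducer, was at 393, 154 and 264, with -1.35 and -0.99. LTBP2, a matrix protein related to the latent TGF-beta binding proteins, was at 119, 41.0 and 53.2, with -1.53 and -1.43.

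Cell cycle lists held few members past 2-fold. Cyclins, kinases and inhibitors, 17 measured, had a median of -0.19, 12 below 0 and 1 past 2-fold lower. CCND1, cyclin D1 and also a study target chosen on these samples, was at 1044 (control), 430 (siRNA1) and 96.2 (siRNA2), with -1.28 and -1.14 on the next probe set. CDKN1A, the inhibitor p21, was at 363 and 206 (-0.82). CDK6 was at 316, 184 and 1137 (-0.78), so siRNA1 was the low array and siRNA2 the high one. DNA replication genes, 31 measured, had a median of -0.17. POLD1, a polymerase catalytic subunit, at 95.5 and 35.0 (-1.45), was the only one past 2-fold. Mitosis genes, 30 measured, had 0 past 2-fold and a median of 0.01, against -0.35 with siRNA2. Replication-dependent histones, 10 measured, had 8 above 0 and a median of 0.18, against 1.34 with siRNA2. H2BC5 was at 58.0, 157 and 306 (1.44), and its next probe set gave 0.77.

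Cholesterol synthesis genes, 20 measured, had 15 below 0, a median of -0.30 and 1 past 2-fold, SREBF1, a master regulator of lipid synthesis, at 42.7 and 19.8 (-1.11). STARD4, a sterol carrier, was at 143 and 74.4 (-0.94). IDI1, the isoprenoid isomerase, was at 463 and 258 (-0.85, next probe set -0.53). In the glycolysis and hypoxia list, 28 measured, 19 lay below 0 and the median was -0.10, with 2 past 2-fold lower. BNIP3, a hypoxia-induced mitophagy receptor, was at 1956 (control), 879 (siRNA1) and 1531 (siRNA2) (-1.15, next probe set -1.48). PFKFB4, which sets fructose 2,6-bisphosphate, was at 92.6 and 45.4 (-1.03), while its next probe set was dim, at 14.3 on both arrays (0.00).

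Genes that respond to foreign or double-stranded RNA were not raised as a list. The interferon-stimulated genes and RNA sensors, 17 measured, had a median of -0.24 with 11 below 0, 0 past 2-fold higher and 1 lower, and the median was 0.17 with siRNA2. ISG20, an exonuclease of interferon-treated cells, was at 79.4 and 39.6 (-1.004, next -1.08). IFIT3 was at 99.2 and 51.4 (-0.95), and IFI44 at 65.7 and 114 (0.79). EIF2AK2, the kinase PKR that binds double-stranded RNA, was equal on both arrays at 235. The RNA interference machinery, 13 measured, had a median of -0.00, with 2 lower. PRKRA, a partner of Dicer and PKR, was at 117 (control), 54.2 (siRNA1) and 126 (siRNA2) (-1.11). AGO1 was at 123, 58.0 and 125 (-1.09), but -0.03 on its next probe set. DICER1 (-0.93) and TNRC6A (-0.92) fell short of 2-fold, TNRC6B stood at 0.86 and AGO2 at 0.15.

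For survival and quality control genes the lists were flat with single exceptions. BCL2 family genes, 13 measured, had a median of -0.17, and BCL2A1, an anti-apoptotic NF-kappaB target, was the 1 past 2-fold, at 126 and 47.0 (-1.42). Autophagy and lysosome genes, 20 measured, had a median of 0.13 and 1 past 2-fold, WIPI1, at 17.8 and 37.5 (1.08). BECN1 was at 130 and 246 (0.92) and WIPI2 at 121 and 208 (0.78). The p53 targets, 16 measured, had a median of 0.00 and only SESN2 past 2-fold. Proteins reported to bind DANCR or to act with it, 8 measured, had 0 past 2-fold and a median of -0.06. EZH2 was at 262 and 196, a ratio of -0.42.

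Long noncoding RNAs and snoRNA hosts other than DANCR, 9 measured, had 1 higher and 1 lower and a median of 0.07. LINC01234 is given above, and MIR100HG, a microRNA host, was at 362 (control), 114 (siRNA1) and 125 (siRNA2) (-1.66). GAS5, another snoRNA host, was at 11.5 and 16.8, both near the floor.

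Gene groups that served as a reference stayed near 0. Cytosolic ribosomal proteins (19 measured, median 0.02), respiratory chain subunits (22, median 0.07) and proteasome subunits (23, median 0.02) each had 0 members past 2-fold. Housekeeping genes, 11 measured, had a median of -0.03, with GUSB, a lysosomal glucuronidase, the 1 lower, at 245 and 110 (-1.15). Of the markers that define the cells, KRT18, a keratin of simple epithelia, was at 1315 and 711 (-0.89) and VIM was bright, while KRT7, KRT8 and GATA3 stood below 30 on both arrays. KRT5, KRT14, KRT19, KRT20 and the uroplakins UPK1A, UPK1B, UPK2 and UPK3A were not measured above the floor, so the arrays show few urothelial markers.

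Cell types that the culture should not hold left little signal. Of 8 endothelial and fibroblast markers 3 were measured, and the summed intensity of the 8 was 102 in the control and 73.0 with siRNA1. The highest was 30.9 in the control, and CDH5, VWF, DCN, LUM and PDGFRA were at the floor. Of 6 leukocyte markers 3 were measured, with a sum over the 6 of 66.1 and 63.9 and PTPRC at the floor. Of 4 erythroid and hepatic markers 2 were measured, with a sum over the 4 of 55.3 and 48.4 and ALB at the floor. All these levels stayed below 31 on both arrays. The part of such cells in the differences above was not tested.

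**Figure D5:**
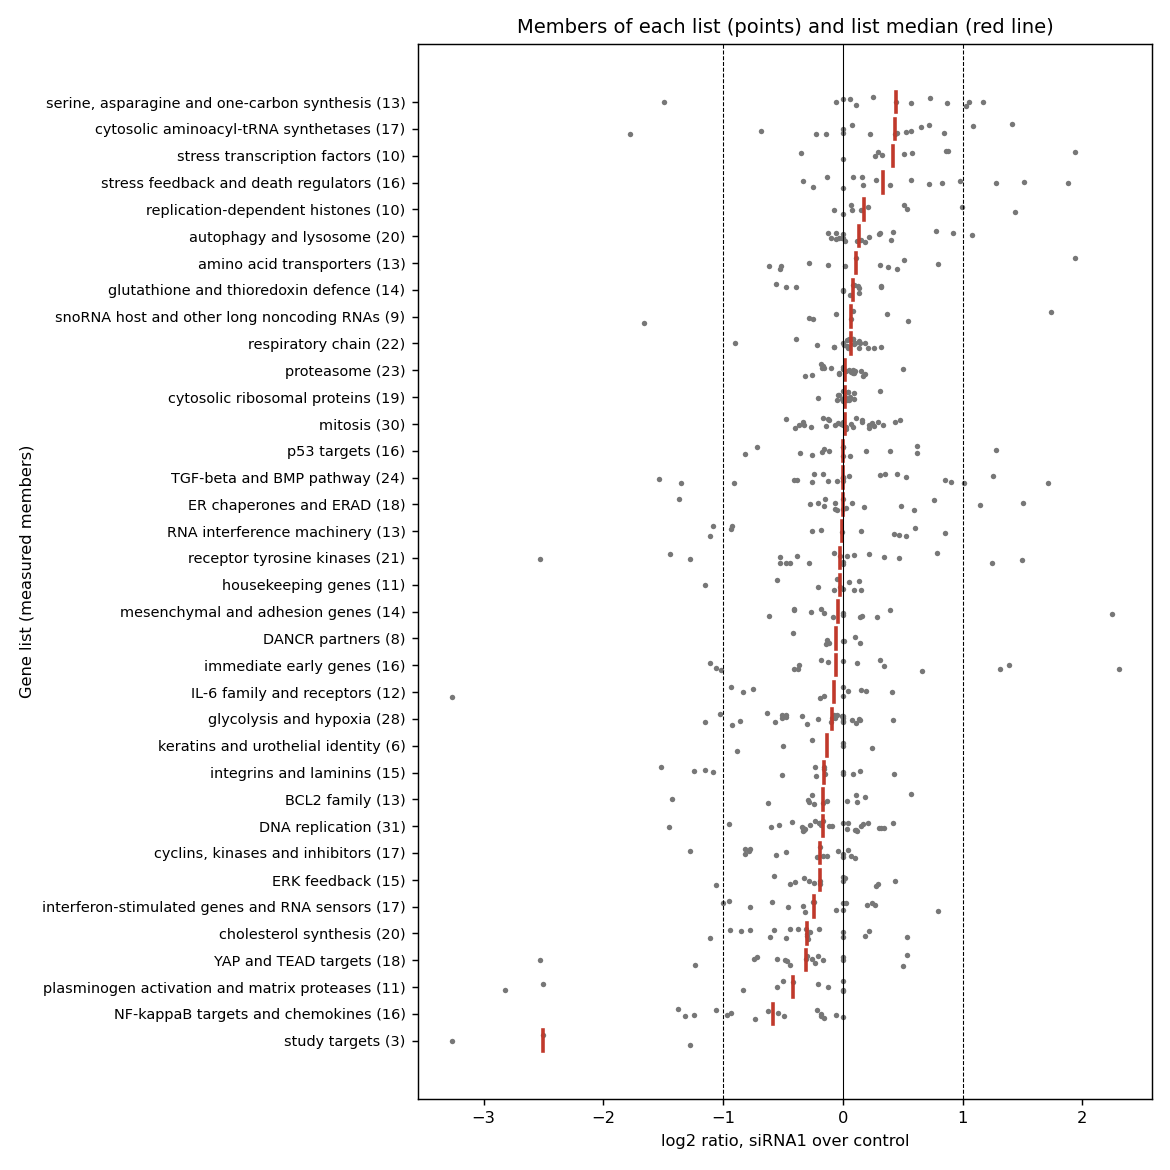
Log2 ratio of DANCR siRNA1 over control for the members of 36 gene lists (grey points), with the list median as a red line, dashed lines at 2-fold and the number measured beside each name. NF-kappaB targets have a median of -0.58, while the ribosomal, respiratory chain and proteasome lists lie close to 0.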

How the data were processed

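Per the labels, biotin-tagged cRNA made from total RNA of UM-UC-3 cells was put on Affymetrix arrays. The authors deposited 1 linear intensity per probe set and array, for 54675 probe sets. The submitters' processing notes name GCOS 1.4, and the normalisation is not given in the sources used here. Values were raised to the median of the table (10.5). Of the probe sets, 41091 named 1 gene and 1801 several in the platform's annotation. Coordinates are given for RefSeq promoters alone (GRCh38.p14). Old symbols were updated through Entrez identifiers. The single-gene probe set with the highest mean over the 3 arrays stood for its gene, and the log2 ratio of DANCR siRNA1 over control was computed. A gene was called at a fold of 2 or more.

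Members and lists were chosen with earlier results of these data known. The genes named were the markers, the 12 highest and 12 lowest with a supporting probe set, 6 each way with no further one, 5 each way with an array at the floor, and 6 with an opposed probe set. Each list added every member past 2-fold, or up to 4 of the largest, and the stress lists gave further members. Genes named outside this rule were chosen after their values were seen. No group had replicates, so no test was run. Python 3.11.15, numpy 2.4.6, pandas 2.3.3 and matplotlib 3.10.9 were used, and the procedure was tested on simulated data. The alternatives were other floors, centring, quantile normalisation, other ways to choose probe sets, and folds of 1.5 and 3.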

Additional observations from a re-analysis of the deposited data

How the results depend on the processing

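No array can be left out with 1 per group, and no paired analysis was possible because each group has 1 array and so shares only 1 replicate number. The count of higher genes was 148 by the median over a gene's probe sets, 888 at 1.5-fold and 24 at 3-fold, and that of lower genes 750 and 36 at those folds. With further probe sets above the 70th percentile, 94.6% of higher and 92.7% of lower genes had one in the same direction. Signs turned for NDST1 (-0.16, median over probe sets), CCDC85B (-0.25) and TMEM132A (0.013), both without _s_at and _x_at probe sets. Medians moved as follows. With the 70th percentile floor they were -1.77 for study targets, 0.31 for amino acid transporters, 0.77 for histones, -0.027 for interferon-stimulated genes, -0.89 for keratins and -0.053 for endothelial and fibroblast markers. Histones stood at 0.51 with the 30th percentile floor and 0.52 with none. By the median over probe sets, study targets were at -1.87 and tRNA synthetases at 0.24. Without _s_at and _x_at probe sets, study targets were at -2.27, tRNA synthetases at 0.074, proteases at -0.25 and replication at 0.00. Without members at the floor, study targets were at -1.89. Means in place of medians were 0.51 for stress feedback, 0.25 for tRNA synthetases, -0.44 for the IL-6 family, -0.72 for proteases, 0.11 for immediate early genes, -0.39 for integrins, 0.39 for histones, -0.27 for glycolysis and -0.72 for endothelial and fibroblast markers. The cause was not tested.

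Among the named genes, the median over probe sets took 27 below 2-fold. They included EGR1 (0.83), TRIB3 (0.90), PSAT1 (0.84), SARS1 (0.58), ERO1A (0.80), SCD (-0.96), SMAD3 (-0.83) and NFKBIA (-0.66). The smallest ratios left were those of LLGL1 (-0.17), AGO1 (-0.18), FOSL2 (-0.18), TMEM132A (-0.26) and DIP2C (0.42). The 70th percentile floor did so for 16. Among them were COL3A1 (0.74), CBS (0.39), NFKBIE (-0.52), SREBF1 (-0.52) and WIPI1 (0.33), with SPOCD1 (-0.004) and KCNC1 (-0.03) the smallest. In EGR1 and TRIB3 the median over probe sets includes one whose control value lay under the floor, and in NFKBIA one at 16.9 on both arrays. Of 1557 recomputed ratios of named genes, 1498 kept their direction and their side of 2-fold, 54 came under it, 2 went past it and 3 turned sign. Dim genes cannot show a fall past the floor, so their folds are limited.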

Other observations

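Fatty acid synthesis genes, a list made after values were seen, had 4 of 12 measured members 2-fold lower with DANCR siRNA1. That is 33.3%, against 1.76% of all measured genes, with 0 higher and 9 below 0. The median log2 ratio was -0.69, against -0.05 with DANCR siRNA2, which shares the control. Over the 9 members with a further probe set, the median of that probe set was -0.079, so the size of the list's median rests on the brightest ones. FASN, the fatty acid synthase, was at 159 (control), 42.0 (siRNA1) and 148 (siRNA2), 3.77-fold lower with siRNA1. Its next probe set, at 15.9 and 13.6, gave -0.23 but lay too near the floor to show a fall of that size. SCD, the main stearoyl-CoA desaturase, was at 889, 249 and 350, 3.58-fold lower, with -0.55 on its next. ACACA, acetyl-CoA carboxylase, was at 235 and 131 (-0.84), but -0.08 on its next probe set. For FASN and ACACA the siRNA2 array stood beside the control.

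Zinc finger genes named ZNF, also grouped after values were seen, had 25 of 335 measured members 2-fold higher (7.46%, against 1.88% of all measured genes) and 1 lower, with 227 above 0 and 50 below and a median of 0.14. With DANCR siRNA2 there were 17 higher and 1 lower. Most of the 25 were dim, with a median intensity of 25.6 in the control and a range of 8.06 to 268, against a control median of 32.5 for all measured ZNF genes and 69.3 for all measured genes. A further probe set existed for 15 of the 25, pointed the same way in 11 and was past 2-fold in 6. Over the 135 ZNF members with a further probe set, it lay above 0 in 61 and below in 44. Its median was 0, so the shift of the whole list rests on the brightest probe sets.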
